A study of Homo sapiens with 6 samples.

Results

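The 6 genes described here, KMT2A, KMT2B, KMT2C, KMT2D, SETD1A and SETD1B, were chosen by name from 60669 genes counted in each library, and all 6 passed the filter on low counts that left 17575 genes for testing. Their RNA was read in 293T cells, a transformed line from human embryonic kidney, with 2 libraries in each of 3 groups. One group carried a PRMT1 knockdown by short hairpin RNA, one a CRISPR/Cas9 knockout of MLL2, while the control cells were wild type and no treatment is named for any group. The alignment names in the file headers carry shPR for the knockdown and shNT for both the knockout and the control libraries, and the labels do not explain these names. The labels do not say whether the knockout is 1 clone, nor from which cultures the libraries of a group came beyond calling them biological replicates, so a p-value here speaks of the spread between these samples alone, which may be technical. The name MLL2 has been given to both KMT2B and KMT2D, and the labels do not say which was cut.

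These 6 enzymes place methyl groups on lysine 4 of histone H3, a mark of active promoters and enhancers, and each works in a COMPASS complex built on the shared proteins WDR5, RBBP5, ASH2L and DPY30. They form related pairs: SETD1A and SETD1B are linked to broad trimethylation at active promoters, KMT2A and KMT2B to trimethylation at selected promoters such as those of HOX genes, and KMT2C and KMT2D to monomethylation at enhancers. PRMT1 is the main enzyme for asymmetric dimethylation of arginine, with histone H4 among its substrates.

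The libraries held 20061471 to 22351532 counts in genes. PRMT1 stood at 38.2 and 34.9 CPM (the count divided by the library size after TMM scaling and set to a common total) in the knockdown libraries and at 306 and 318 CPM in the control libraries, a log2 change of -3.10 ± 0.09 (SE, adjusted p = 5.5e-16). In the knockout libraries PRMT1 was at 406 and 425 CPM, higher than in the control (log2 change 0.41 ± 0.08, adjusted p = 8.9e-04). Adjusted p-values are from the quasi-likelihood test of edgeR, adjusted by Benjamini and Hochberg's method across the 17575 genes, and a gene was called at an adjusted p under 0.05. Of the embryonic kidney and neuronal genes known from this line, VIM lay at 490 to 751 CPM, although PAX2 stayed at or below 0.541 CPM. NEFL, a neurofilament gene, was at 56.6 and 53.2 CPM in the knockdown libraries, 156 and 153 CPM in the knockout libraries, and 346 and 351 CPM in the control libraries, and its part in the results on the methyltransferase genes was not tested. Of 8 markers of other cell types, CD3E, COL1A2 and TYR had no count in any library, and the 8 summed to 2.61 and 1.67 CPM in the knockdown, 0.693 and 0.490 CPM in the knockout libraries, and to 1.10 and 2.41 CPM in the control libraries. Counts are shares of a library, so fewer cells of a kind and less RNA per cell cannot be told apart. The 2 knockdown libraries differed from each other more than the libraries of the other groups did: the chi-square per degree of freedom between them was 12.8, against 4.45 between the knockout and 5.58 between the control libraries. The edgeR fit gives each gene a spread shared by all groups. The SE and p-values of knockdown comparisons thus draw also on groups whose libraries differed less, and may understate the spread between the knockdown libraries. Those of the knockout against the control draw also on the knockdown libraries, and may overstate the spread of the compared libraries.

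The messages of the 6 genes run from moderate to very long. KMT2A (chromosome 11, 118436490 to 118526832) has 31279 nt of exon, more than 99.8% of the 13328 tested protein-coding genes. KMT2D (chromosome 12, 49018975 to 49059774) has 20485 nt and KMT2C (chromosome 7, 152134922 to 152436005) has 20114 nt. KMT2B (chromosome 19, 35717973 to 35738878) has 10461 nt, SETD1B (chromosome 12, 121804180 to 121832584) 8314 nt and SETD1A (chromosome 16, 30957754 to 30984664) 6372 nt. SETD1B is longer than 78.5% of the tested protein-coding genes and SETD1A than 62.4%. The files give these coordinates, and the submitters' processing notes name the build, hg38. In base composition they fall into separate groups: the longest transcript had a GC content of 63.5% for KMT2B, 62.3% for SETD1A, 61.3% for SETD1B and 59.1% for KMT2D, against 46.9% for KMT2A and 45.0% for KMT2C. Of the exons of KMT2A, 5599 nt are shared with an overlapping protein-coding gene on the same strand (ENSG00000285827, 0 to 7 counts in a library), and reads there could not be assigned, so its level is understated. KMT2C has partial copies elsewhere, of which BAGE2 on chromosome 21 had 0 to 4 counts, and its own counts hold the reads that could be placed.

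The promoters were set side by side because all 6 genes were called higher in the knockdown than in the control, KMT2A and SETD1B not in every setting. RefSeq (GRCh38.p14) gave a 300-base window, 250 bases before to 50 after the start, for 5 of them, all but SETD1B. Shown are the 250 bases upstream of both genes that have been called MLL2 and of KMT2A, which had the smallest log2 change of the 6 in the knockdown. Capitals mark every match, on either strand, to GGGCGG (the GC box), CACGTG (the E-box) or CCGGAA (the core of an ETS site), and matches may overlap. KMT2D lies on the minus strand, and its RefSeq start is upstream of its start in the counted annotation, at 49059774, so its stretch does not adjoin the counted gene.
KMT2B, chr19:35717753-35718002, plus strand: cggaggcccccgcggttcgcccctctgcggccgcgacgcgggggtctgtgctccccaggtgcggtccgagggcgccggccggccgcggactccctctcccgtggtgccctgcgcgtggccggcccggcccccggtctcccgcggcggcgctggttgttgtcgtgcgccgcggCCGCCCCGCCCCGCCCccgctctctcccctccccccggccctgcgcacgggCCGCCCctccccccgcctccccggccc
KMT2D, chr12:49060795-49061044, minus strand: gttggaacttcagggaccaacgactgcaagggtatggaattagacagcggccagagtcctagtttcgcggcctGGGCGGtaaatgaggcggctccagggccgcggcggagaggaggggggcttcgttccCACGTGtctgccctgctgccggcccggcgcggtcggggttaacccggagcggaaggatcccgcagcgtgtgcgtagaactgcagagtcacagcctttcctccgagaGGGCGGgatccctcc
KMT2A, chr11:118436242-118436491, plus strand: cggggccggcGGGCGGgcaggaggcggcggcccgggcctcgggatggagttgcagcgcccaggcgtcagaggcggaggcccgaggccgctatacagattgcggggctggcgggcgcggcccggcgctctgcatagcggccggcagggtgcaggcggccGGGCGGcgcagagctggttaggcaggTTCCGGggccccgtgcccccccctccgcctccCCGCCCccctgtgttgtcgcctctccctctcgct

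In the 300-base windows GGGCGG matched 15 times in KMT2C, 5 times in KMT2B, 4 times in SETD1A, 3 times in KMT2A and 2 times in KMT2D, and 45.0% of 35116 promoters of that length hold at least 1 match. CACGTG was found in KMT2D alone of the 5 (7.26% of promoters hold it), CCGGAA in KMT2A alone (17.2%), AAGATGG, the core of a YY1 site, in KMT2B alone (5.84%) and a form of the NRF1 site, GCGC on both sides of 2 bases of any kind, in KMT2C alone (8.32%). TATAAA and CCAAT matched in 0 of the 5 windows, against 11.5% and 34.6% of promoters. All 5 windows were rich in GC, from 65.0% in KMT2D and SETD1A to 88.7% in KMT2C, and held 27 to 56 CG dinucleotides.

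Because the messages differ in length, levels between genes were compared as CPM per kb of exon. KMT2C was the most abundant of the 6 in every library, at 13.6 ± 3.23 CPM per kb in the knockdown, 5.88 ± 0.765 in the knockout and 5.28 ± 0.868 in the control (mean ± SD, n = 2 each). It made up 57.3% and 49.0% of the summed level of the 6 in the knockdown libraries, 50.2% and 52.2% in the knockout and 51.4% and 50.1% in the control libraries. In the control the order below it was KMT2A (1.82 ± 0.182), SETD1A (1.26 ± 0.150), KMT2D (0.963 ± 0.187), KMT2B (0.681 ± 0.0535) and SETD1B (0.406 ± 0.189 CPM per kb), and no neighbours in this order overlapped between their libraries. In the knockout SETD1A (1.81 ± 0.155) and KMT2A (1.57 ± 0.199 CPM per kb) overlapped in the places next to it, and with the shared bases of KMT2A left out of its length KMT2A came above SETD1A. In the knockdown all neighbours below KMT2C overlapped, since its 2 libraries lay far apart. SETD1B was the lowest of the 6 in all 3 groups.

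In the PRMT1 knockdown all 6 methyltransferase genes were called higher than in the control. Of all tested genes, 22.2% were called higher in this comparison and 47.4% in either direction. The median log2 change of the 6 was 1.48, against -0.04 for all genes. Called and at least 2-fold higher were 5 of the 6, all but KMT2A, and 6.07% of all genes. In all 6 both knockdown libraries stood above both control libraries, as they did for 35.0% of all genes.

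The KMT2C and KMT2D pair, the enhancer enzymes, were both called higher, also without knockdown replicate 2 and after the correction for length and GC content given further on. KMT2C was at 227 and 319 CPM in the knockdown libraries, against 119 and 93.9 CPM in the control libraries, a log2 change of 1.36 ± 0.13 (adjusted p = 4.0e-08). Both knockdown libraries were at least 2.13-fold above the control mean. KMT2D was at 37.7 and 95.4 CPM in the knockdown libraries and at 22.4 and 17.0 CPM in the control libraries, a log2 change of 1.76 ± 0.25 (adjusted p = 8.4e-06). Its second knockdown library was 2.53-fold above its first, and without it the log2 change was 0.94.

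The KMT2A and KMT2B pair, whose proteins carry the CXXC domain that binds unmethylated CG, were both called higher. KMT2B was at 13.4 and 26.7 CPM in the knockdown libraries and at 6.73 and 7.52 CPM in the control libraries, a log2 change of 1.49 ± 0.24 (adjusted p = 3.1e-05), or 0.91 without knockdown replicate 2. KMT2A was at 62.6 and 101 CPM in the knockdown libraries and at 60.8 and 52.7 CPM in the control libraries, a log2 change of 0.53 ± 0.15 (adjusted p = 0.00646). Its first knockdown library lay only just above the higher control library, and without knockdown replicate 2 the log2 change was 0.14 and the call was lost (adjusted p = 0.345 by edgeR). Without knockdown replicate 1 it was 0.83, and without control replicate 2 it was 0.42, again with no call (adjusted p = 0.0873 by edgeR). The ratio of KMT2B to KMT2A, per kb, was 0.639 and 0.790 in the knockdown libraries, 0.475 and 0.410 in the knockout libraries and 0.331 and 0.426 in the control libraries. The knockdown libraries were thus above all others in this ratio. With 2 libraries against 2 an exact two-sided permutation test cannot go below p = 0.333, and no other test of the difference between the genes was run.

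The SETD1A and SETD1B pair are the human counterparts of the only H3K4 methyltransferase of budding yeast, Set1. SETD1A was at 17.2 and 26.8 CPM in the knockdown libraries and at 8.67 and 7.32 CPM in the control libraries, a log2 change of 1.46 ± 0.20 (adjusted p = 3.8e-06). SETD1B, the gene with the fewest reads, had 97 and 345 counts in the knockdown libraries and 90 and 46 counts in the control libraries, which is 4.69 and 15.1 CPM against 4.49 and 2.26 CPM. Its log2 change of 1.56 ± 0.40 (adjusted p = 0.0027) rested largely on 1 library: the first knockdown library lay next to the first control library. Without knockdown replicate 2 it was 0.47 with no call (adjusted p = 0.329 by edgeR), and without control replicate 2 it was 1.14 with no call (adjusted p = 0.052 by edgeR). The Wald test of DESeq2 called neither SETD1B (adjusted p = 0.0918) nor KMT2A (adjusted p = 0.141), and called the other 4.

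**Figure D1:**
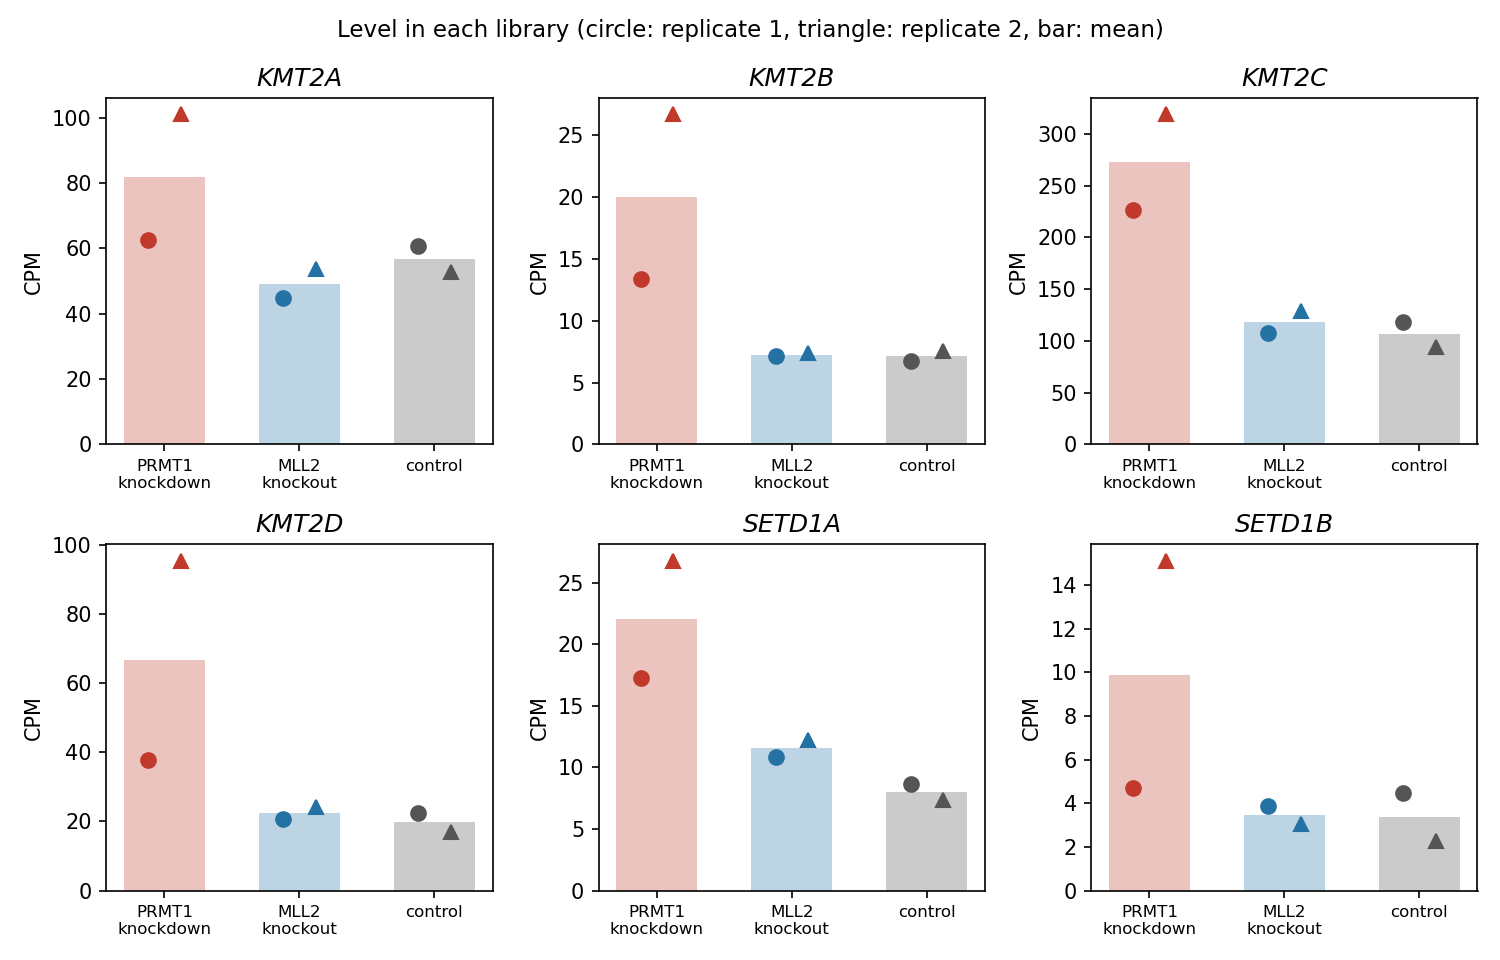
Level of each gene in CPM in the 6 libraries, by group (circles are replicate 1, triangles replicate 2, bars the mean of the 2). In every panel both PRMT1 knockdown libraries lie above both control libraries, the second knockdown library is the highest of all, and for KMT2A and SETD1B the first knockdown library is close to a control library.

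The second knockdown library was above the first for all 6 genes, by 0.49 (KMT2C), 0.64 (SETD1A), 0.69 (KMT2A), 0.997 (KMT2B), 1.34 (KMT2D) and 1.69 (SETD1B) on the log2 scale. Between the 2 control libraries the same difference, replicate 2 minus replicate 1, ran from -0.99 in SETD1B to 0.16 in KMT2B, and between the 2 knockout libraries from -0.35 in SETD1B to 0.27 in KMT2C. Across genes with an average log2 CPM above 2, the difference between the knockdown libraries moved with length and GC content. Its median was -0.04 for all 11509 such genes, -0.22 for the 222 with under 1000 nt of exon, 0.01 for the 3421 with over 6000 nt and a GC content under 50%, and 0.20 for the 836 with over 6000 nt and a GC content over 55%. For the 196 genes over 10000 nt and over 55% GC it was 0.36. These classes were chosen after the lengths and GC contents of the 6 genes were seen.

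The change against the control moved with length as well. Its median on the log2 scale was -0.45 for genes under 1000 nt, 0.11 for those over 6000 nt and 0.22 for those over 10000 nt. Of those over 10000 nt, 44.5% were called higher, against 28.9% of all 11509 genes with an average log2 CPM above 2. For genes over 6000 nt with a GC content over 55% the median was 0.01, and 8.13% of them had a log2 change of at least 1, called or not. That share was 9.69% for genes over 10000 nt and over 55% GC, and 4.51% for all 11509 genes. After counts were corrected for length and GC content with a spline per library, the log2 change in the knockdown was 1.63 ± 0.37 for SETD1B, 1.61 ± 0.18 for SETD1A, 1.56 ± 0.20 for KMT2B, 1.53 ± 0.19 for KMT2D and 1.04 ± 0.09 for KMT2C, all called, and 0.12 ± 0.10 for KMT2A, not called (adjusted p = 0.362 by edgeR). KMT2A lies at the far end of the lengths, where few genes guide the spline, so its corrected value is less certain. With that correction and without knockdown replicate 2 together, KMT2B, KMT2C, KMT2D and SETD1A were still called higher, at 0.92 (KMT2C) to 1.36 (SETD1A).

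**Figure D2:**
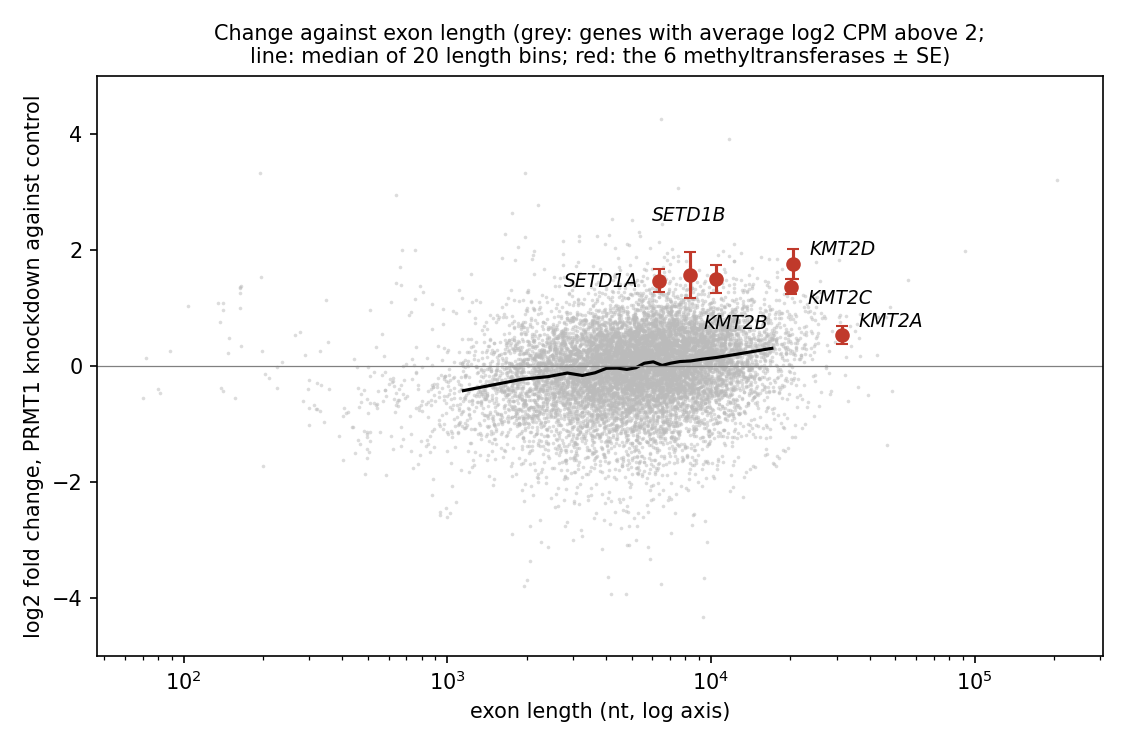
Log2 fold change of the PRMT1 knockdown against the control by exon length in nt (log axis), for 11509 genes with an average log2 CPM above 2 (grey), with the median of 20 length bins (line) and the 6 methyltransferase genes in red with their SE. The medians rise with length, KMT2A lies closest to them, and the other 5 genes lie well above, between 1.36 and 1.76.

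In the MLL2 knockout none of the 6 genes was called, against 22.4% of all genes in either direction. Before adjustment edgeR gave a p under 0.05 for 1 of them, SETD1A, and DESeq2 called 0 of the 6. None was called at least 2-fold higher, as were 0.706% of all genes. The median log2 change of the 6 was 0.10, against -0.01 for all genes. The main fit took its spread also from the knockdown libraries, so missing calls and the intervals below may reflect those libraries too. It called 3941 genes in this comparison. The fit of the 4 compared libraries alone called 5386 genes and 1 of the 6, SETD1A. Of both genes named MLL2, KMT2B was at 7.11 and 7.35 CPM in the knockout libraries and at 6.73 and 7.52 CPM in the control libraries, a log2 change of 0.02 with a 95% interval of -0.50 to 0.55. KMT2D was at 20.7 and 24.2 CPM in the knockout libraries, against 22.4 and 17.0 CPM in the control libraries, a log2 change of 0.19 with an interval of -0.36 to 0.73. Neither gene's libraries separated by group. An edit can end a protein without lowering its message, and gene counts hold no position within a gene, so these values do not check the knockout label.

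SETD1A came nearest to a call in the knockout. It was at 10.9 and 12.2 CPM in the knockout libraries and at 8.67 and 7.32 CPM in the control libraries, a log2 change of 0.53 ± 0.20 (adjusted p = 0.067), and was the only one of the 6 whose knockout libraries both lay above both control libraries (30.1% of all genes did). The length and GC correction called it, at 0.67 ± 0.19 (adjusted p = 0.00847 by edgeR), as did several other settings. KMT2A had 44.8 and 53.6 CPM in the knockout libraries, against 60.8 and 52.7 CPM in the control libraries (log2 change -0.21 ± 0.15, adjusted p = 0.369), so that the groups overlapped. The groups overlapped as well for KMT2C (107 and 129 CPM in knockout, 119 and 93.9 CPM in control libraries) and for SETD1B (3.88 and 3.04 CPM in knockout, 4.49 and 2.26 CPM in control libraries). For SETD1B the 95% interval of the log2 change ran from -0.83 to 0.91.

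Set directly against the knockout, the knockdown was higher for all 6 genes, and all 6 were called, as were 19.4% of all genes in that direction and 40.7% in either. Called and at least 2-fold higher were 4 of them, against 5.92% of all genes. The log2 change was 1.57 ± 0.25 for KMT2D (adjusted p = 3.8e-05), 1.52 ± 0.39 for SETD1B (adjusted p = 0.00385), 1.47 ± 0.24 for KMT2B (adjusted p = 4.7e-05), 1.21 ± 0.13 for KMT2C (adjusted p = 2.9e-07), 0.93 ± 0.19 for SETD1A (adjusted p = 5.5e-04) and 0.74 ± 0.15 for KMT2A (adjusted p = 5.5e-04). The median of the 6 was 1.34, against 0.01 for all genes. After the length and GC correction all 6 stayed called, KMT2A at 0.28 (adjusted p = 0.0332 by edgeR). With that correction and without knockdown replicate 2 together, 4 of the 6 were called, and KMT2A (0.09, adjusted p = 0.561 by edgeR) and SETD1B (0.51, adjusted p = 0.302 by edgeR) were not. Without knockdown replicate 2, SETD1B lost its call, at 0.43 (adjusted p = 0.403 by edgeR), KMT2A stood at 0.35, KMT2B at 0.89, KMT2D at 0.75 and SETD1A at 0.58. DESeq2 called the other 5 genes but not SETD1B (adjusted p = 0.112).

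**Figure D3:**
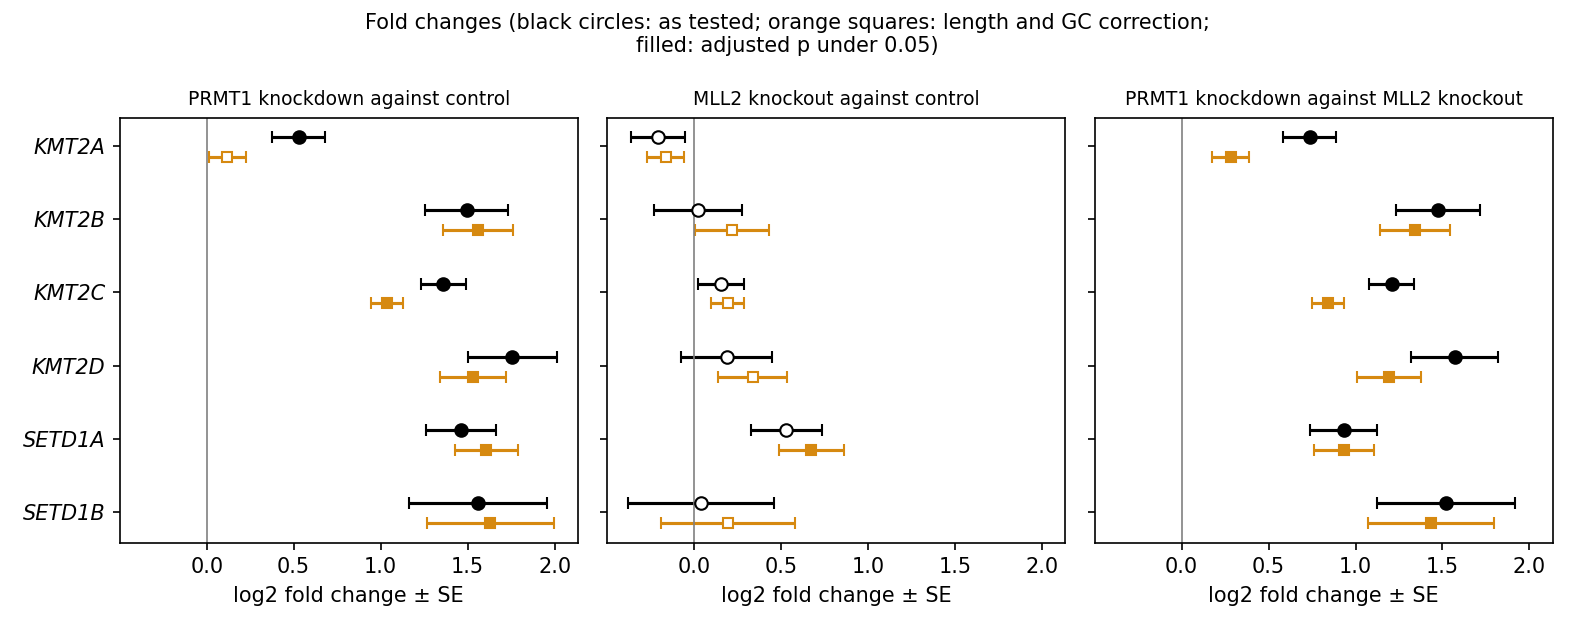
Log2 fold changes ± SE of the 6 genes in the 3 comparisons, as tested (black circles) and after the length and GC correction (orange squares), filled where the adjusted p was under 0.05. In the knockdown against control panel KMT2A drops to 0.12 with the correction, while the other 5 stay at 1.04 or above. In the knockout panel no black circle is filled.

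The genes for the other proteins of these complexes were less uniform in the knockdown. Of all tested genes, 22.2% were called higher and 25.3% lower in this comparison. Of the 4 shared core subunits, RBBP5, which helps bind the SET domain, was higher at 98.1 and 99.9 CPM in knockdown and 59.5 and 60.3 CPM in control libraries (log2 change 0.72 ± 0.09, adjusted p = 9.3e-07), and ASH2L, its partner, was lower (-0.36 ± 0.13, adjusted p = 0.0243). WDR5 (0.19 ± 0.09) and DPY30 (0.04 ± 0.11) were not called. Of 4 subunits of the SETD1 complexes 2 were higher and 1 lower: HCFC1, a scaffold also found with KMT2A and KMT2B, rose (1.66 ± 0.21) and so did WDR82, which ties the complex to RNA polymerase II (0.45 ± 0.08), while BOD1 fell (-0.25 ± 0.08). HCFC1 stood at 58.1 and 115 CPM in the knockdown libraries and at 24.6 and 30.5 CPM in the control libraries, with the second knockdown library again the higher.

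Of 4 subunits of the KMT2A and KMT2B complexes, HCFC1 was higher and PSIP1, the chromatin tether LEDGF, was lower (-0.97 ± 0.09, adjusted p = 4.5e-08). MEN1, menin, was not called (0.11 ± 0.11). Of 4 subunits of the KMT2C and KMT2D complexes 3 were higher, namely KDM6A, the H3K27 demethylase UTX (0.90 ± 0.09), NCOA6 (0.74 ± 0.22) and PAXIP1 (0.56 ± 0.09), and PAGR1 was lower, at 30.1 and 29.8 CPM in knockdown and 56.0 and 57.7 CPM in control libraries (log2 change -0.93 ± 0.10, adjusted p = 2.2e-07). PAGR1 binds PAXIP1 in that complex. These counts stand beside the 22.2% of all genes called higher and 25.3% called lower.

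Among the genes that remove the mark and the other SET domain enzymes, calls went in both directions. Of 5 H3K4 demethylases KDM5A was higher (0.52 ± 0.08) and KDM1B lower (-0.79 ± 0.11), with a list median of 0.05. Of 25 other SET domain methyltransferases 9 were higher and 5 lower, with a median of 0.01, where 22.2% of all genes were higher and 25.3% lower. ASH1L, an H3K36 methyltransferase (0.76 ± 0.10), SMYD5 (0.77 ± 0.11) and KMT2E, a relative whose SET domain is thought to be inactive (0.92 ± 0.13), rose, and SETDB1, an H3K9 methyltransferase, fell (-0.65 ± 0.09). In all, the 58 other chromatin genes on these lists and on a list of H3K4 readers and partners gave 22 called higher and 12 lower, with a median of 0.17, beside the same 22.2% and 25.3% of all genes.

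**Figure D4:**
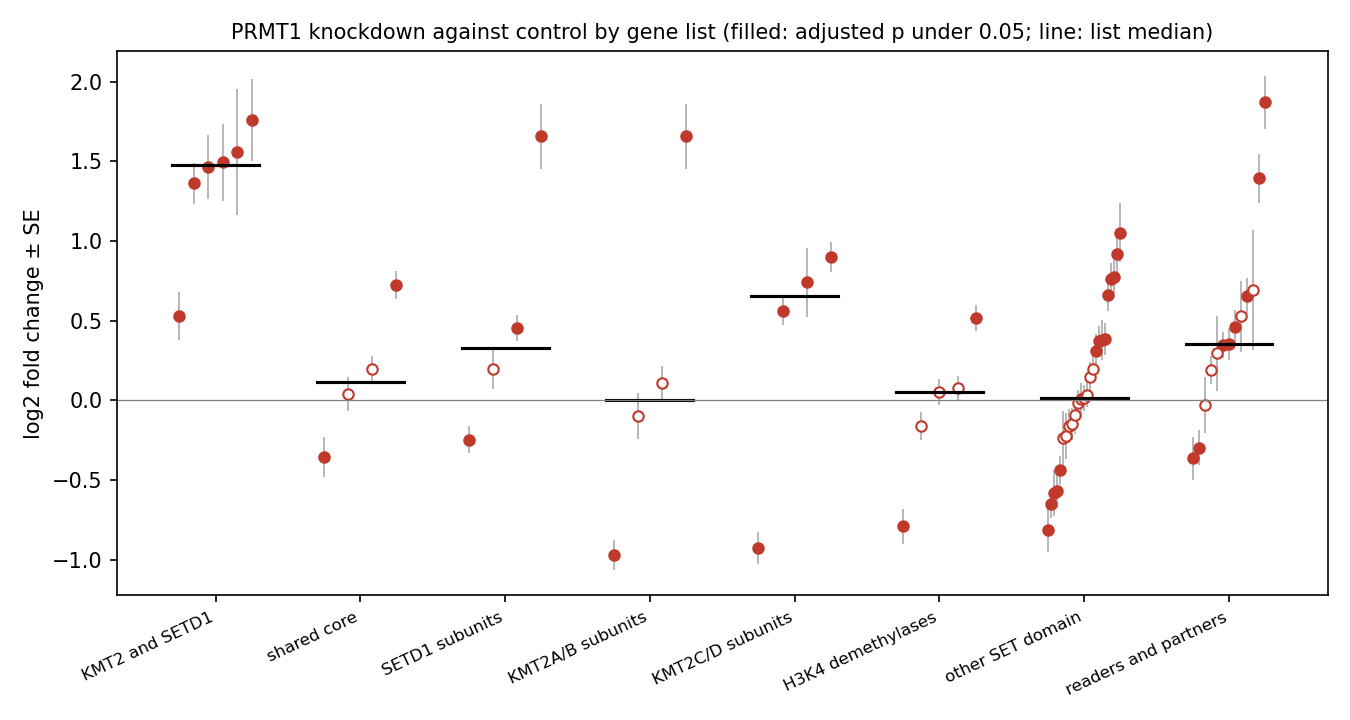
Log2 fold change ± SE in the PRMT1 knockdown against the control for the genes of each list (filled points have an adjusted p under 0.05, lines are list medians, HCFC1 stands in 2 lists). The 6 methyltransferase genes all lie above 0 with a median of 1.48, while each of the other lists has members below 0.

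In the knockout 9 of the same 58 genes were higher and 2 lower (median 0.10), where 10.3% of all genes were higher and 12.1% lower. Among the complex subunits RBBP5 (0.39 ± 0.09, adjusted p = 0.00313), WDR82 (0.38 ± 0.08, adjusted p = 0.00233) and KDM6A (0.32 ± 0.09, adjusted p = 0.0186) were called higher and none lower. RBBP5 stood at 79.4 and 77.5 CPM in the knockout libraries and at 59.5 and 60.3 CPM in the control libraries, with no overlap. Both comparisons share the control libraries.

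The genes with the profile nearest to the mean of the 6 were found by the root mean square difference of centred log2 CPM over the 6 libraries, among 10763 other protein-coding genes with an average log2 CPM of at least 2. They were PPARGC1B, a transcriptional coactivator (0.107), PRRC2A (0.128), ZFHX3, a homeobox factor (0.131), MLXIP, a glucose-sensing factor (0.132), and HECTD4 (0.134). Since they were picked for this likeness over the same libraries, their changes are a description of the choice. In the knockdown they rose by 1.17, 1.38, 1.21, 1.14 and 1.12 on the log2 scale, all called, and none was called in the knockout. Their exon lengths ran from 9120 nt in PRRC2A to 22347 nt in ZFHX3. PRRC2A was also the nearest single gene to KMT2B (0.115), GLI3 the nearest to KMT2C (0.0542), SRRM2 to KMT2D (0.151), GATA6 to SETD1A (0.11), ZFP41 to KMT2A (0.0542) and FKBP11 to SETD1B (0.307). Among the 6 themselves KMT2C and SETD1A were the closest (0.17) and KMT2A and SETD1B the farthest apart (0.541).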

How the data were processed

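The authors deposited 1 table of raw counts of reads per gene for each library. Per the labels' protocols, total RNA was extracted with TRIzol and made into libraries with the TruSeq Stranded Total RNA Gold kit. Per the submitters' processing notes, reads were trimmed with Trim Galore 0.6.10 and aligned to hg38 with STAR 2.7.5a. Per the file headers, featureCounts 2.0.1 counted paired reads on the reverse strand (setting 2) against GENCODE 34 at a mapping quality of at least 10; the notes name version 1.5.0-p1. Symbols matched 60370 of 60669 genes. GENCODE 29 supplied each gene's biotype and GC content.

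The counts were filtered with filterByExpr, scaled by TMM and fitted in edgeR 4.0.16 (R 4.3.3, glmQLFit and glmQLFTest) with a term per group over all 6 libraries and 3 residual degrees of freedom. The SE is the log2 change divided by the root of the F statistic. Intervals are at 95% on the fit's total degrees of freedom, 20.6, most of which edgeR borrows across genes. The procedure was checked on simulated data that had the same spread in all groups and no trend with length. That check therefore does not cover the wider spread of the knockdown libraries or their length trend. DESeq2 1.42.0 was an alternative. For the correction, each library's deviation from the gene mean was fitted with natural splines (5 degrees of freedom) on log exon length and GC content. Extreme lengths and GC contents were capped before the fit, so the longest genes got the correction of the cap. The members and lists were chosen with earlier results of these data known. Named genes were the 6 members, PRMT1, up to 4 genes per list with the smallest adjusted p, overlapping genes, and the nearest profiles (5 to the mean and 1 to each member). Motifs were searched on both strands. One marker gene of the line, and the sums that hold it, are not reported here.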

Additional observations from a re-analysis of the deposited data

How the results depend on the processing

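In the knockdown against control, edgeR and DESeq2 gave the same direction for all 6 genes under every alternative but 1: KMT2A was at -0.0711 with the length and GC correction and without knockdown replicate 2 together, a combination chosen after seeing the data, as was the length of KMT2A without its shared bases. Leaving out each library gave 4 to 6 called members and 6416 to 8238 called genes in the knockdown against control, 0 to 1 and 1908 to 5492 in the knockout against control, and 5 to 6 and 5244 to 7333 in the knockdown against the knockout. In the knockout the count of called members, 0, became 1 (SETD1A) without a count filter, with the replicate block, with the length correction, with the length and GC correction with or without the block, and in the fit of the 4 compared libraries alone; it became 3 with the length and GC correction and without knockdown replicate 2. Leaving out either knockdown library, which is in neither compared group, changed that count as well. Signs in the knockout turned on single libraries: KMT2B ran from -0.0543 to 0.10, KMT2C from -0.00381 to 0.33 and SETD1B from -0.37 to 0.62. With the replicate number as a block 8710, 4512 and 7529 genes and 6, 1 and 6 members were called (knockdown, knockout, and knockdown against knockout). Without the block these were 8337, 3941 and 7154 genes and 6, 0 and 6 members. Whether the replicate numbers pair the samples cannot be told from 2 libraries per group. Deviations of the first replicates correlated at 0.0633 (control and knockout), 0.044 (control and knockdown) and 0.197 (knockout and knockdown). The causes were not tested. SETD1B had 46 to 345 counts in a library, and what depth adds to its spread was not tested.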

Other observations

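Among 13 readers of the H3K4 mark and partners of these enzymes, 6 were higher and 2 lower in the knockdown, with a median of 0.36, where 22.2% of all genes were higher and 25.3% lower. The acetyltransferase genes CREBBP and EP300, whose proteins work at enhancers beside KMT2C and KMT2D, led them. CREBBP was at 47.7 and 71.3 CPM in the knockdown libraries and at 14.7 and 17.9 CPM in the control libraries (log2 change 1.87 ± 0.16, adjusted p = 1.1e-08 by edgeR). EP300 was at 67.1 and 107 CPM in the knockdown libraries, against 33.1 and 33.5 CPM in the control libraries (log2 change 1.39 ± 0.15, adjusted p = 2.8e-07 by edgeR). Both are long, with 15479 and 11692 nt of exon, and in both the second knockdown library was the higher, as in the methyltransferase genes; the part of length in their values was not tested.

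Of 8 genes known as targets of KMT2A, 3 were higher and 1 lower in the knockdown, and 2 higher and 0 lower in the knockout. Of all genes 22.2% were higher and 25.3% lower in the knockdown, and 10.3% and 12.1% in the knockout. HOXA9 was at 45.4 and 42.3 CPM in the knockdown libraries and at 19.1 and 22.02 CPM in the control libraries (log2 change 1.09 ± 0.12, adjusted p = 3.1e-07 by edgeR). It was also higher in the knockout, at 25.9 and 26.8 CPM (0.36 ± 0.12, adjusted p = 0.0429 by edgeR). CDKN2C, a cell cycle inhibitor, was lower in the knockdown (-0.43 ± 0.11, adjusted p = 0.00246 by edgeR) and higher in the knockout (0.39 ± 0.11, adjusted p = 0.0103 by edgeR).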
